A study of Homo sapiens with 6 samples.

Results

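Mucins are large glycoproteins that cover and protect epithelia, and 10 of their genes were described here in 253J cells among the 60483 gene IDs in the count files. The 10 genes were taken by symbol from a fixed list, and each matched 1 ID in the files. Of these, 4 encode secreted gel-forming mucins (MUC2, MUC5AC, MUC5B and MUC6) and 6 encode mucins anchored in the cell membrane (MUC1, MUC4, MUC12, MUC13, MUC17 and MUC20). 253J is an established human bladder cancer cell line grown in RPMI-1640 with fetal bovine serum. According to the labels, cells carried FTO siRNA (siFTO, replicates 4, 5 and 6) or were controls (control, replicates 1, 2 and 3). What the control cells received is not given in the sample titles. The methods of the study describe short hairpin RNAs instead, so the kind of construct was not settled. RNA-seq of FTO-knockdown and control cells was made to look for transcripts that depend on FTO, an enzyme that removes the methyl group of N6-methyladenosine from RNA.

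Gel-forming mucins are secreted by goblet and gland cells, linked end to end into long polymers, and swell into mucus. Transmembrane mucins stay on the cell surface, where they form the glycocalyx and carry cytoplasmic tails that take part in signalling. Both kinds hold tandem repeats rich in serine, threonine and proline, to which O-linked sugars are attached in the Golgi. In the normal bladder a thin layer of such glycoproteins lines the urothelium, while MUC2 is best known as the main mucin of the intestine and MUC5AC and MUC6 as mucins of the stomach.

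The repeats are shown because they set how a read can be placed within these genes. In the longest transcript of each gene in GENCODE 29 (GRCh38), the most frequent exact repeat unit spanned 69 bases in MUC2 with 9 copies, 24 bases in MUC5AC with 16 copies, 60 bases in MUC1 with 19 copies and 48 bases in MUC4 with 14 copies. Each unit is given from the 5′ end of the mRNA strand, from where it first stood in the transcript (base 5949 in MUC2, 7147 in MUC5AC, 534 in MUC1 and 3958 in MUC4).
MUC2: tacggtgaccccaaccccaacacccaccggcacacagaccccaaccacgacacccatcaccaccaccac
MUC5AC: ctcctacaaccagcacaacctctg
MUC1: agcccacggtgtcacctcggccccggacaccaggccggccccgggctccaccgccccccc
MUC4: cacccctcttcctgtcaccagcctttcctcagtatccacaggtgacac
Each unit length is a whole number of codons, although GENCODE 29 types the MUC2 transcript used here as a processed transcript and not as protein coding. Tandem repeats covered 34.8% of the MUC2 transcript, 23.4% of MUC5AC, 63.0% of MUC1 and 57.6% of MUC4, and none was found in MUC13 at the 80% match used. Stretches of 50 bases that occurred once in the transcriptome made up the whole of MUC13, 98.2% of MUC6, 78.6% of MUC2, 78.2% of MUC5AC, 68.5% of MUC5B, 57.6% of MUC1 and 38.5% of MUC12. In MUC20 only 30.9% were unique and 46.6% also stood in MUC20P1, a related pseudogene, so the counts of MUC20 are uncertain. MUC20 also shared 42.8% of its exon bases with MUC20-OT1 on the same strand, whereas MUC5B-AS1, antisense to MUC5B, had 0 counts in every library. How reads with several possible positions were counted is not given in the sources used here, and levels of the repeat-rich genes carry this limit.

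All 4 gel-forming genes lie side by side on chromosome 11 in the band 11p15.5 (coordinates from GENCODE 29, GRCh38, for the whole gene with exons, introns and UTRs). MUC6 (ENSG00000184956.14) spans chr11:1012821-1036706 on the minus strand, and MUC2 (ENSG00000198788.8) spans chr11:1074875-1110511 on the plus strand. MUC5AC (ENSG00000215182.8) follows at chr11:1157953-1201138 and MUC5B (ENSG00000117983.16) at chr11:1223066-1262172, both on the plus strand. The gaps between neighbours were 38.2 kb, 47.4 kb and 21.9 kb. Among the membrane-bound genes, MUC1 (ENSG00000185499.15) lies at chr1:155185824-155192916 and MUC13 (ENSG00000173702.6) at chr3:124905442-124953819, both on the minus strand. MUC20 (ENSG00000176945.15, chr3:195720882-195741123, plus strand) and MUC4 (ENSG00000145113.20, chr3:195746765-195812277, minus strand) are 5.6 kb apart. MUC12 (ENSG00000205277.8, chr7:100969623-101018949) and MUC17 (ENSG00000169876.12, chr7:101020072-101058745) are 1.1 kb apart on the plus strand. Since hg19 and GRCh37 are the builds in the submitters' processing notes, reads may have been counted at other coordinates than these.

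The promoters of MUC2 and MUC1 are shown because these genes had the 2 largest fold changes in the family. Both come from RefSeq on GRCh38.p14, which held a promoter for 6 of the 10 genes, and run from 250 bases before to 50 bases after the start of the gene. Capitals mark matches on either strand to TATAAN (TATA-like), GGGCGG (GC box), TTTAT (the core of CDX sites, which can overlap a TATA-like match) and TGTTTNC (the core of FOX sites).
MUC2 promoter (chr11:1074624-1074923, plus strand): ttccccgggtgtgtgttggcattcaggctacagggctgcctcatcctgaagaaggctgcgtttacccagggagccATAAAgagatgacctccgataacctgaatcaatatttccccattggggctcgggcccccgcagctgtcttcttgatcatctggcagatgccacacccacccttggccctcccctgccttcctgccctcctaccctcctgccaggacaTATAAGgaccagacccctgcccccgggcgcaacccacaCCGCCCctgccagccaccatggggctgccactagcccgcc
MUC1 promoter (chr1:155192866-155193165, minus strand): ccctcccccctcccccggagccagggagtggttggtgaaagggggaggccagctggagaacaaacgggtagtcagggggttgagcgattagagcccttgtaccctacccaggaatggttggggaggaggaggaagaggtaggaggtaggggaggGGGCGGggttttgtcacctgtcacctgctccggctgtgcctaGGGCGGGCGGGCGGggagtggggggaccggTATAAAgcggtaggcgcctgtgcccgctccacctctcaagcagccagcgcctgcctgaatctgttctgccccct
The MUC2 promoter held 1 TATA-like match at -28, 1 GC box and 1 CDX core at -175. The MUC1 promoter held 1 TATA-like match, 4 GC boxes and 1 CDX core that overlapped the TATA-like match. Neither of the promoters shown held a FOX core. RefSeq also held a second MUC1 promoter (chr1:155192860-155193159) with the same matches, the TATA-like match being at -30 instead of -24. Among all 27305 promoters of this length, 21.1% held a TATA-like match, 44.6% a GC box, 35.8% a CDX core and 18.1% a FOX core. A match is a description of the letters and does not show that a factor binds there.

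The libraries held between 13162731 and 15709975 counts in siFTO cells and between 10991789 and 19891269 in control cells. FTO itself had 20.2, 20.7 and 15.7 CPM (read counts set against the library size after TMM scaling) in siFTO cells, against 31.8, 21.4 and 31.2 CPM in control cells. Its log2 fold change was -0.57 (SE 0.16, edgeR quasi-likelihood test, adjusted p = 0.0209), and the call was lost in 4 of 16 alternatives. These were library totals alone (-0.47, edgeR adjusted p = 0.0536), a threshold of 0.01, and the fits without control replicate 1 (adjusted p = 0.107) or control replicate 3 (adjusted p = 0.113). In siFTO replicates 4 and 5, 12 fibroblast markers summed to 1159 and 1397 CPM, against 35.1 CPM in siFTO replicate 6 and 22.5 to 25 CPM in control cells. VIM alone gave 635.5 and 730.4 CPM of the sums in siFTO replicates 4 and 5. PDGFRB had 6.93 and 6.78 CPM there, against 4.76 to 7.63 CPM in control cells. COL3A1, PDGFRA and THY1 were at or near 0 in all 6 libraries. A list of 13 leukocyte markers summed to 90.2 and 113 CPM in the same siFTO replicates 4 and 5, 7.43 CPM in siFTO replicate 6 and 4.54 to 6.04 CPM in control cells. Most of the sums in siFTO replicates 4 and 5 came from CD74 (61.1 and 75.3 CPM) and HLA-DRA (15.8 and 24.7 CPM). The general leukocyte marker PTPRC and TYROBP were at most 0.0729 CPM in any library, and CD3E, CD3D and MS4A1 were at 0 in all 6. Each tested mucin is therefore also given with siFTO replicate 6 as the only siFTO library. Of 14 urothelial markers, 6 reached 1 CPM in each siFTO library and 6 or 7 in each control library, and UPK1B, a uroplakin of the bladder surface, was at 0 in all 6. Of 16 intestinal epithelial markers, 14 reached 1 CPM in each siFTO library and 13 in each control library, with CLCA1 and ATOH1, markers of goblet and secretory cells, at 0. The labelled bladder origin therefore stood beside few uroplakin reads and many intestinal transcripts, and the identity of the line was not tested.

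In control cells the family was led by MUC13, a transmembrane mucin of the gut surface, followed by the gel-forming MUC5B and MUC5AC. Levels between genes are given as CPM per kilobase of exon, since these mRNAs differ several-fold in length. MUC13 had a level of 23.1 CPM per kilobase in control cells, MUC5B 3.16 and MUC5AC 1.99. MUC20 (0.641) and MUC2 (0.425) came next, then MUC6 (0.146), MUC12 (0.104), MUC1 (0.058) and MUC4 (0.0445), all in CPM per kilobase. The ranges over the 3 control libraries overlapped between MUC6 and MUC12 and between MUC1 and MUC4, and no other neighbours in this order overlapped. MUC17 had 0 counts in each control library, where 3 counts, the limit that a count of 0 allows, correspond to 0.155 to 0.279 CPM. Thus MUC1, a mucin found on most glandular epithelia, was among the least abundant members, with 3, 5 and 4 counts in control libraries.

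**Figure D1:**
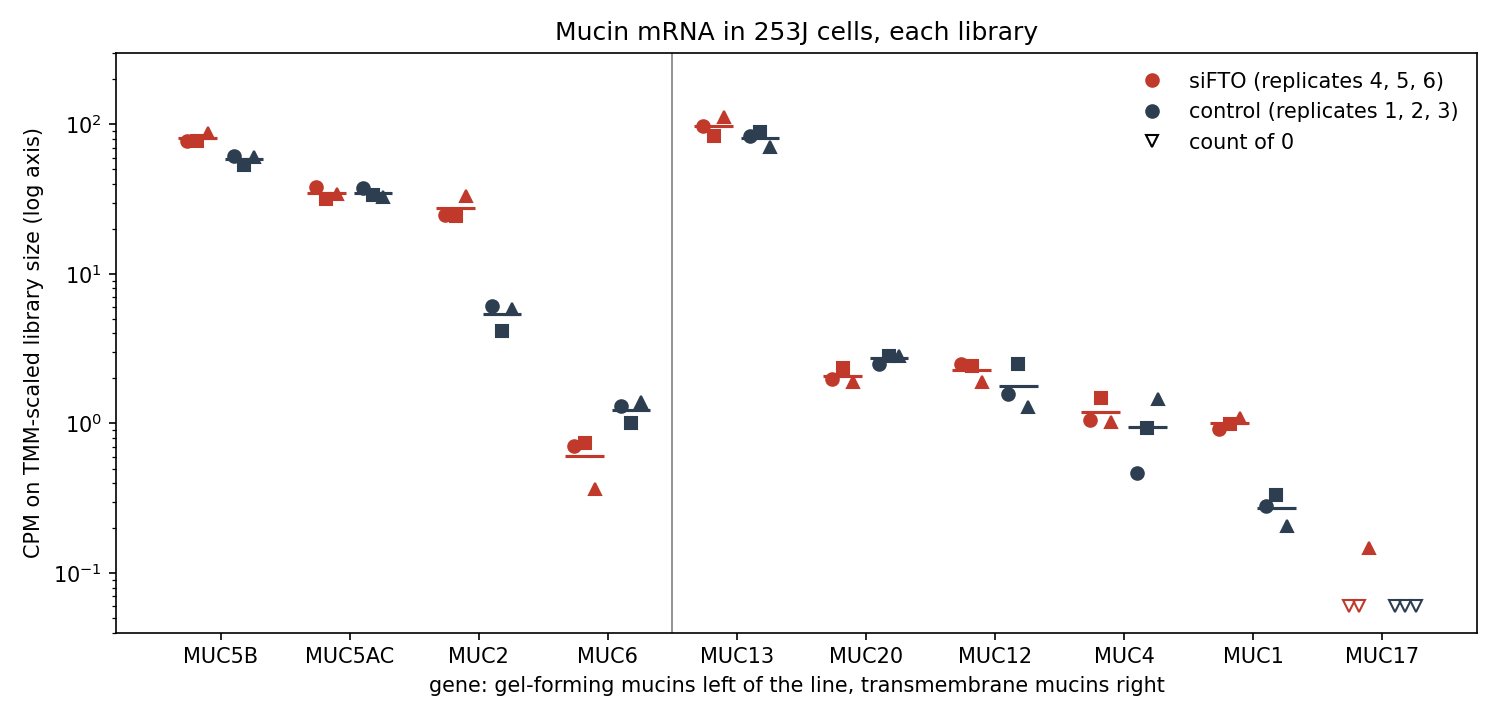
CPM of the 10 mucins in each library on a log axis, with siFTO points left of control points for each gene, group means as bars and counts of 0 as open triangles. MUC2 and MUC1 lay higher in all 3 siFTO libraries than in any control library, MUC6 lay lower, and MUC5AC overlapped.

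The first comparison was of siFTO with control cells in each gel-forming mucin. MUC2 and MUC5B rose in siFTO cells, MUC5AC showed no difference past the test, and MUC6 fell at a low level. Among the 14965 genes tested, 19.5% were called higher and 17.9% lower, and all 4 gel-forming genes were tested, of which 2 were called higher and 1 lower. Their median log2 fold change was 0.23, against 0.01 over all genes tested.

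MUC2, the polymer-forming mucin of intestinal goblet cells, had 24.7, 24.4 and 33.3 CPM in siFTO cells, against 6.14, 4.15 and 5.84 CPM in control cells. The groups did not overlap, and siFTO replicate 6 was the highest of all. The means were 27.5 ± 5.07 CPM in siFTO cells and 5.38 ± 1.07 CPM in control cells (SD, n = 3 each), a ratio of 5.11. The log2 fold change was 2.35 (SE 0.18, 95% interval 1.95 to 2.76, edgeR adjusted p = 7.06e-05). It passed the threshold in all 16 alternatives, between 2.18 and 2.64, and was 2.64 with siFTO replicate 6 as the only siFTO library. The MUC2 promoter with its TATA-like match at -28 and CDX core at -175 is given above, and CDX2, which is known to bind the MUC2 promoter, is described among the regulators.

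MUC5B, the mucin of airway and salivary glands, had 77.6, 77.6 and 87.3 CPM in siFTO cells, against 61.8, 53.9 and 60.6 CPM in control cells. The 2 sets of libraries did not overlap, but the difference was far smaller than for MUC2. The log2 fold change was 0.46 (SE 0.09, 95% interval 0.25 to 0.67, edgeR adjusted p = 0.00456), and it passed in all 16 alternatives with values between 0.39 and 0.57. With siFTO replicate 6 alone it was 0.57 (adjusted p = 0.0216).

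MUC5AC, the mucin of the stomach surface and airway goblet cells, had 37.9, 31.5 and 34.3 CPM in siFTO cells, against 37.8, 33.5 and 32.9 CPM in control cells. The libraries of both groups were interleaved. The log2 fold change was -0.0045 with a 95% interval of -0.24 to 0.23 (edgeR adjusted p = 0.977), and its sign depended on the scaling (0.11 with library totals alone). It was -0.0145 (adjusted p = 0.962) with siFTO replicate 6 alone. MUC5AC and MUC5B are close relatives in sequence, yet only 0.4% of the 50-base stretches of MUC5AC also stood in MUC5B.

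MUC6, the mucin of gastric glands, had 0.707, 0.746 and 0.364 CPM in siFTO cells, against 1.3, 1.0 and 1.4 CPM in control cells. These values rest on 10, 12 and 5 counts in siFTO libraries and 14, 15 and 27 counts in control libraries. MUC6 reached the level of the low-count filter in 2 siFTO libraries and 3 control libraries. It was therefore tested only with the help of the control libraries, where it was high. The groups did not overlap, and the log2 fold change was -1.01 (SE 0.35, 95% interval -1.79 to -0.23, edgeR adjusted p = 0.0451). The call was lost in 12 of 15 alternatives, including each fit without 1 library (adjusted p 0.0667 to 0.193) and DESeq2 (adjusted p = 0.242). The value was -1.74 (adjusted p = 0.0962) with siFTO replicate 6 alone, so the fall of MUC6 was not firm at this depth.

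**Figure D2:**
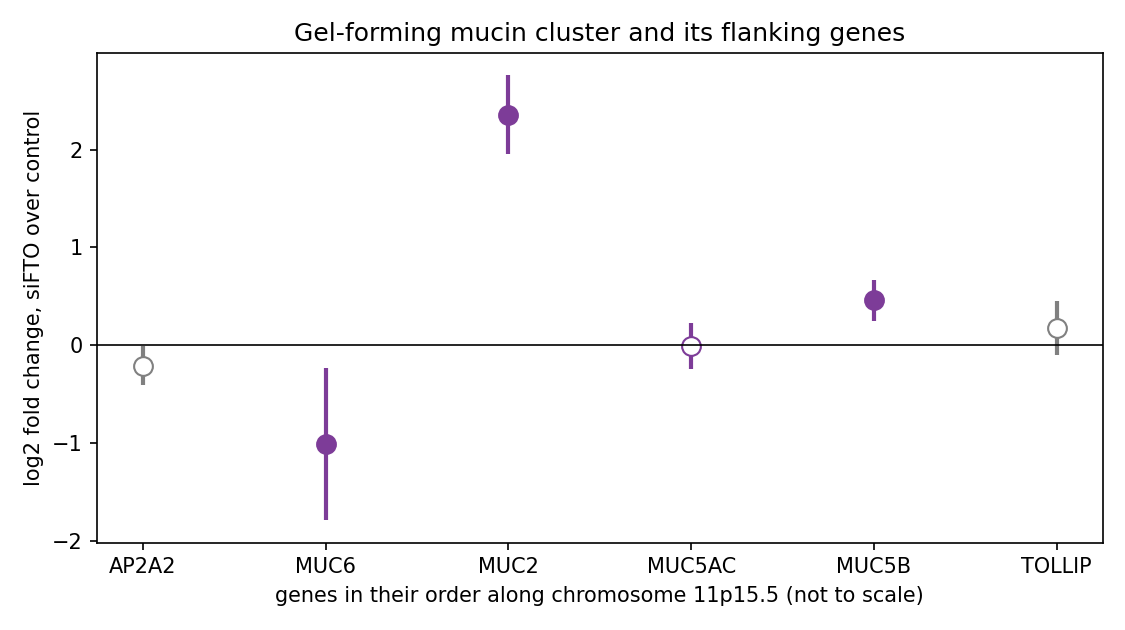
Log2 fold change of siFTO over control (vertical axis, with 95% intervals) for the 4 gel-forming mucins in purple and the flanking genes AP2A2 and TOLLIP in grey, in their order along the chromosome and not to scale. Filled points passed an adjusted p of 0.05, and MUC2 (2.35) stood between MUC6 (-1.01) and MUC5AC (-0.0045).

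Values thus differed from gene to gene along the cluster. AP2A2, an adaptor subunit of endocytosis next to MUC6, had 119, 127 and 143 CPM in siFTO cells, against 152, 155 and 143 CPM in control cells, and its log2 fold change of -0.21 did not pass (adjusted p = 0.0944). TOLLIP, an inhibitor of Toll-like receptor signalling beyond MUC5B, did not pass either, at a log2 fold change of 0.18 (adjusted p = 0.292). Of 6 neighbouring genes set beside the cluster, 0 were higher and 1 was lower by edgeR, against 19.5% and 17.9% of all genes, so these counts were near the background. In the higher direction 0 passed by DESeq2 or limma voom or had an unadjusted p under 0.05. In the lower direction 2 passed by DESeq2, 1 by limma voom, 2 with upper-quartile factors and 2 without siFTO replicate 6, and 3 had an unadjusted p under 0.05. The gene called lower was CHID1, a chitinase-like protein gene (log2 fold change -0.50, adjusted p = 0.008), and with siFTO replicate 6 alone it did not pass (adjusted p = 0.0823), which left 0 lower.

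The same comparison was then made for the 6 transmembrane mucins. MUC1 was called higher at very few counts, and was tested only through its counts in siFTO libraries. MUC13, MUC12, MUC4 and MUC20 did not pass the test, and MUC17 was too low to be tested. Of the 5 tested, 1 (MUC1) was called higher and 0 lower by edgeR, against 19.5% and 17.9% of all genes, so the class as a whole was near the background. In the higher direction 0 passed by DESeq2, 1 by limma voom and 2 at an unadjusted p under 0.05, and in the lower direction 0 passed by any of these. The median log2 fold change of the 5 was 0.27, against 0.01 over all genes tested.

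MUC1, an epithelial surface mucin whose tail can bind beta-catenin, had 13, 16 and 15 counts in siFTO libraries, against 3, 5 and 4 counts in control libraries. In CPM these were 0.920, 0.995 and 1.09 in siFTO cells and 0.279, 0.335 and 0.207 in control cells. The groups did not overlap, but all 6 values were near or under 1 CPM, and MUC1 reached the level of the low-count filter (0.684 CPM) in 3 siFTO libraries and 0 control libraries, so it was tested only because of the group in which it was high. The log2 fold change was 1.87 (SE 0.38, 95% interval 1.02 to 2.72, edgeR adjusted p = 0.00491). The call was lost with DESeq2 (adjusted p = 0.0575) and with siFTO replicate 6 alone (2.0, adjusted p = 0.0654), where the value itself was not smaller. It was not tested where 10 counts were required in every library. The repeats that cover most of the MUC1 transcript and its promoter with 4 GC boxes are given above.

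MUC13, the most abundant mucin in these cells, had 97.1, 83.3 and 112 CPM in siFTO cells, against 83.3, 88.5 and 71.1 CPM in control cells. The libraries overlapped between the groups, with siFTO replicate 6 the highest. The log2 fold change was 0.27 (SE 0.12, 95% interval 0.00021 to 0.54, edgeR adjusted p = 0.105). It passed with library totals alone (0.39, adjusted p = 0.027) and without siFTO replicate 5 (0.38, adjusted p = 0.0428), but was 0.15 (adjusted p = 0.329) without siFTO replicate 6 and 0.18 (adjusted p = 0.352) without control replicate 3. It was 0.47 (adjusted p = 0.0534) with siFTO replicate 6 alone.

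MUC20, a mucin that binds the receptor MET, had 1.98, 2.36 and 1.90 CPM in siFTO cells, against 2.51, 2.81 and 2.84 CPM in control cells. The groups did not overlap, yet the log2 fold change of -0.39 did not pass (95% interval -0.87 to 0.09, adjusted p = 0.183). The value was -0.53 (adjusted p = 0.355) with siFTO replicate 6 alone. For MUC20-OT1, with which it shares exon bases, the log2 fold change was -0.17 (adjusted p = 0.18).

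MUC12, a surface mucin of the colon, had 2.48, 2.42 and 1.90 CPM in siFTO cells, against 1.58, 2.48 and 1.29 CPM in control cells (log2 fold change 0.35, 95% interval -0.29 to 1.0, adjusted p = 0.357). MUC4, a ligand-like partner of ERBB2, had 1.06, 1.49 and 1.02 CPM in siFTO cells, against 0.465, 0.938 and 1.45 CPM in control cells (log2 fold change 0.25, 95% interval -0.60 to 1.10, adjusted p = 0.634). For both genes the libraries of the groups overlapped and the intervals were wide. Single libraries moved the log2 fold change of MUC12 to 0.67 (without control replicate 2) or 0.15 (without control replicate 3), and with siFTO replicate 6 alone it was 0.10 (adjusted p = 0.908). That of MUC4 was -0.0173 without control replicate 1, 0.73 without control replicate 3, 0.05 without siFTO replicate 5 and 0.0108 with siFTO replicate 6 alone (adjusted p = 0.994). MUC17, a mucin of the intestinal brush border, had 0, 0 and 2 counts in siFTO libraries and 0 in each control library, so no difference was detectable at this depth.

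**Figure D3:**
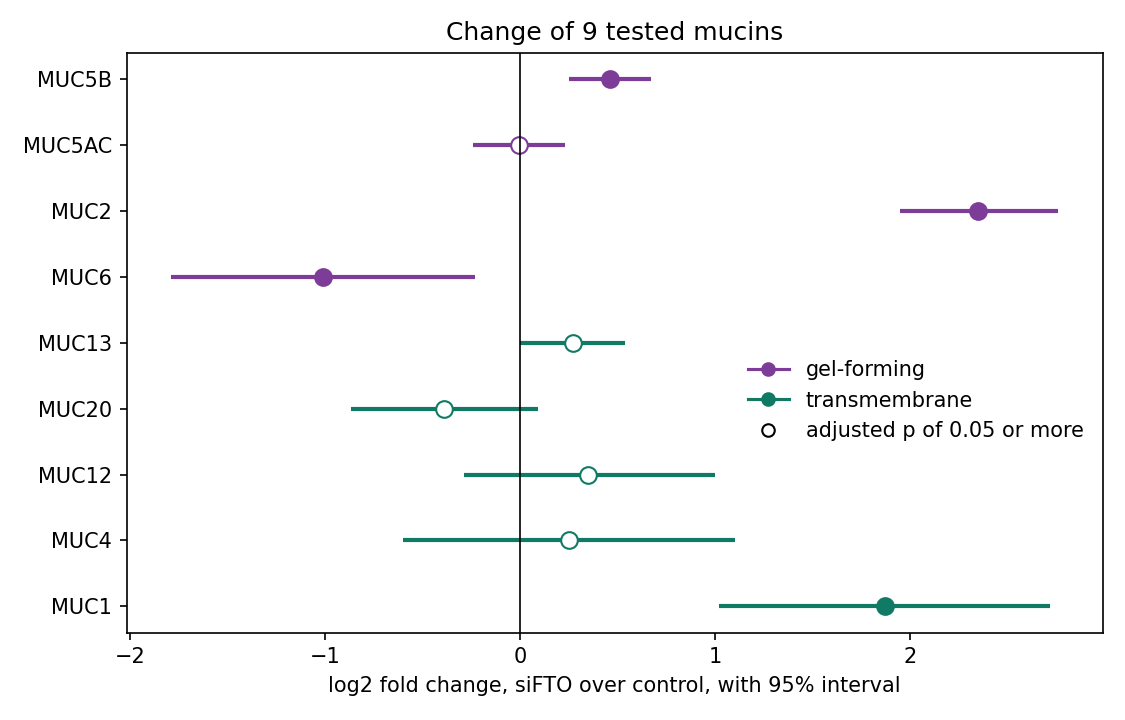
Log2 fold change of siFTO over control with 95% intervals for the 9 tested mucins, gel-forming in purple and transmembrane in green, with filled points past an adjusted p of 0.05. MUC2 (2.35) and MUC1 (1.87) lay far to the right, MUC5B was at 0.46, and MUC6 was at -1.01.

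The classes were then set side by side. Summed over the 4 genes, gel-forming mucins had 134 to 155 CPM in siFTO libraries, against 92.5 to 107 CPM in control libraries, and the groups did not overlap. Transmembrane mucins had 90.5 to 118 CPM in siFTO libraries, against 76.8 to 95 CPM in control libraries, and the groups overlapped. On the scale of CPM per kilobase, the ratio of the gel-forming sum to the transmembrane sum was 0.293, 0.323 and 0.283 in siFTO libraries, against 0.249, 0.201 and 0.273 in control libraries. That ratio was higher in each of the 3 siFTO libraries than in any control library, although the gap between the nearest libraries was smaller than the spread within either group. In CPM without the length, however, the ratio was 1.36, 1.48 and 1.31 in siFTO libraries, against 1.21, 0.973 and 1.31 in control libraries, so the groups met. Both ratios are given as a description, without a test, since the genes were chosen with results known.

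Within the gel-forming class the composition differed. MUC2 held 17.5% to 21.5% of the gel-forming CPM in siFTO libraries, against 4.49% to 5.80% in control libraries. MUC5AC held 22.1% to 26.9% in siFTO libraries, against 32.7% to 36.2% in control libraries, while MUC5B held 55.1% to 57.8% in siFTO libraries and 57.7% to 60.1% in control libraries. Per kilobase, MUC2 reached 2.17 ± 0.40 CPM in siFTO cells, beside 1.98 ± 0.184 for MUC5AC in the same cells, whereas in control cells MUC2 stood at 0.425 and MUC5AC at 1.99. Within the transmembrane class MUC13 held 92.0% to 94.9% of the CPM in siFTO libraries and 92.5% to 94.5% in control libraries.

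**Figure D4:**
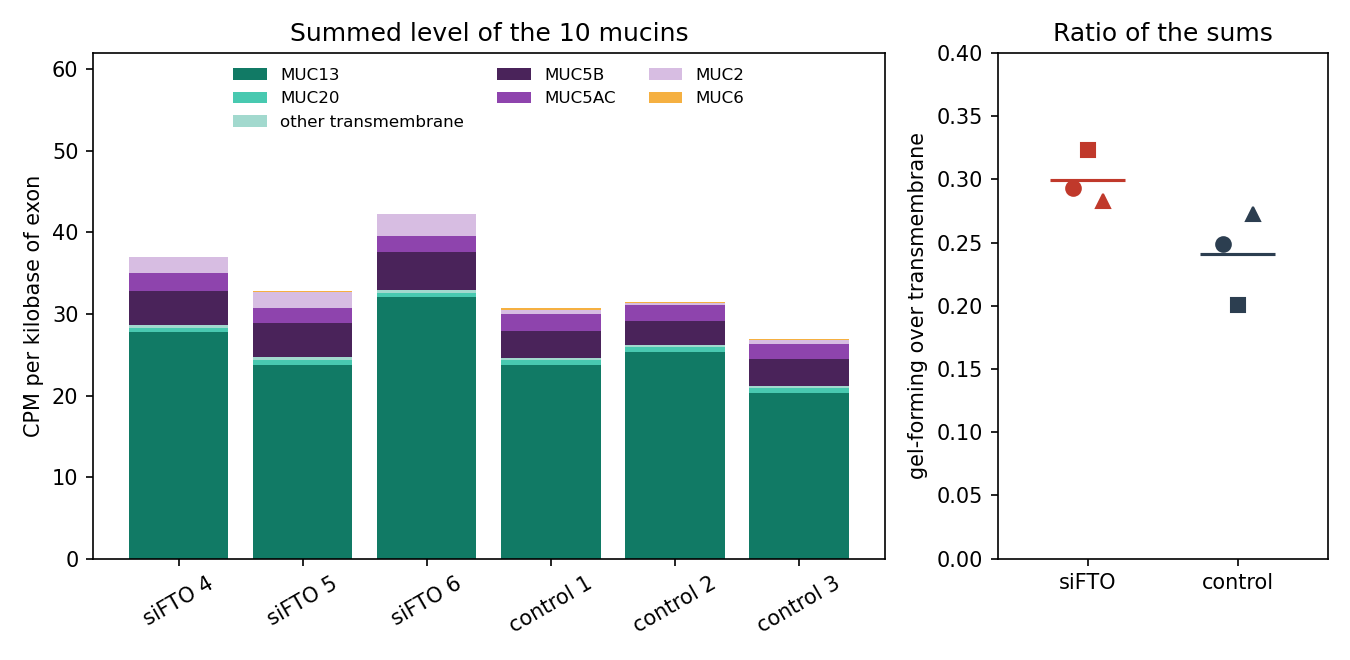
Left, summed CPM per kilobase of exon of the 10 mucins in each library, stacked by gene from a baseline of 0. Right, the gel-forming sum over the transmembrane sum per library with group means as lines, at 0.283 to 0.323 in siFTO libraries and 0.201 to 0.273 in control libraries.

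Beyond the 10 genes, 4 of 12 further mucin or mucin-like genes were tested, and 1 was higher and 0 lower by edgeR, with 0 lower at an unadjusted p under 0.05, which is near the background of 19.5% and 17.9%. CD164, a sialomucin of endosomes and the cell surface, had 253, 253 and 244 CPM in siFTO cells, against 228, 199 and 202 CPM in control cells (log2 fold change 0.25, adjusted p = 0.0387). That call was lost in 9 of 16 alternatives, among them the fits without control replicate 2 (adjusted p = 0.0843), control replicate 3 (0.108), siFTO replicate 4 (0.127) and siFTO replicate 5 (0.0953), each of which left 0 of the list higher. With the length and GC correction the log2 fold change of CD164 was 0.017 (adjusted p = 0.877). MUC3A, the neighbour of MUC12 in the gut mucin cluster on chromosome 7, did not pass (log2 fold change 0.17, adjusted p = 0.424). MUC16, which bears the CA125 antigen, was at most 0.146 CPM in any library.

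The enzymes that start mucin O-glycans, the GALNT family, add the first sugar to serine and threonine. Of 11 tested members, 6 were higher and 1 lower in siFTO cells, against 19.5% and 17.9% of all genes, with a median log2 fold change of 0.45. The 6 include GALNT3, which was tested only through siFTO libraries (0.99, 1.06 and 1.39 CPM in siFTO cells, against 0.465, 0.536 and 0.258 CPM in control cells) and lost its call in 6 of 15 alternatives. GALNT2 had 97.3, 100 and 84.6 CPM in siFTO cells, against 61.1, 54.9 and 65.4 CPM in control cells (log2 fold change 0.64, adjusted p = 0.00165). GALNT10 (0.47, adjusted p = 0.00168) and GALNT1 (0.47, adjusted p = 0.00397) were also higher, while GALNT12, a colonic member, was lower (-0.41, adjusted p = 0.00809). In fits without 1 library between 5 and 10 members were higher (10 of 14 tested without siFTO replicate 6). GALNT5, GALNT13 and GALNT16 were not tested in the reported fit. Without siFTO replicate 6 they could pass the filter only through siFTO replicates 4 and 5. They had 0.808 to 2.86 CPM in those libraries, at most 0.146 CPM in siFTO replicate 6 and at most 0.155 CPM in control cells. The part of the fibroblast markers in this was not tested. With siFTO replicate 6 alone GALNT3, GALNT7, GALNT12 and GALNT18 did not keep their calls. Their log2 fold changes there were 1.76, 0.50, -0.31 and 0.47.

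The enzymes that extend and cap the sugar chains moved both ways. Of 13 tested, 5 were higher and 5 lower, against 19.5% and 17.9% of all genes. GCNT1, which forms the core 2 branch, had 11.7, 18.7 and 4.30 CPM in siFTO cells, against 2.42, 1.88 and 2.69 CPM in control cells (log2 fold change 2.31, adjusted p = 0.00363). With siFTO replicate 6 alone it was 0.88 (adjusted p = 0.0881), and without control replicate 2 the adjusted p was 0.0541. GCNT1 was higher in siFTO replicates 4 and 5, the libraries with the higher fibroblast marker sums, than in siFTO replicate 6, and the part of those markers in the result was not tested. GCNT3, a mucin-type branching enzyme of the gut (0.71, adjusted p = 0.00461), and the sialyltransferase ST3GAL2 (0.43, adjusted p = 0.00564) were also higher. The fucosyltransferase FUT1, which makes the H antigen, had 22.2, 23.8 and 22.6 CPM in siFTO cells, against 51.8, 59.3 and 50.1 CPM in control cells (log2 fold change -1.23, adjusted p = 8.53e-05), and kept its call in all alternatives. ST6GALNAC2 (-1.22, adjusted p = 0.00327) and FUT3 (-1.28, adjusted p = 0.0246) were also lower, the call for FUT3 being lost in 10 of 15 alternatives. FUT3 had 0.707, 0.373 and 0.292 CPM in siFTO cells, against 1.21, 1.14 and 1.03 CPM in control cells, and reached the filter level in only 1 siFTO library, so it was tested through the control libraries. With siFTO replicate 6 alone 1 was higher and 2 were lower, GCNT3 being at 0.65 (adjusted p = 0.0538). The count of lower genes was also 2 without control replicate 1, control replicate 2 or siFTO replicate 5, and 3 without control replicate 3 or siFTO replicate 4, and without control replicate 2 the higher genes numbered 3.

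Among 11 tested genes of mucin folding, secretion and mucus, 2 were higher and 3 lower, near the background of 19.5% and 17.9%. SYTL2, a granule docking protein, had 20.7, 20.8 and 21.6 CPM in siFTO cells, against 6.23, 5.22 and 4.34 CPM in control cells (log2 fold change 2.01, adjusted p = 6.71e-05). AGR2, the disulfide isomerase needed to fold MUC2 in the mouse gut, had 126, 115 and 140 CPM in siFTO cells, against 218, 251 and 161 CPM in control cells (log2 fold change -0.73, adjusted p = 0.00451). The call for AGR2 was lost without control replicate 1 (adjusted p = 0.0512) and with siFTO replicate 6 alone (-0.59, adjusted p = 0.0715). The protease KLK1 (-1.0, adjusted p = 0.000813) and the transcription factor CREB3L4 (-0.86, adjusted p = 0.0013) were also lower. CREB3L1 had 26.9, 33.1 and 1.97 CPM in siFTO cells, against 3.26, 2.61 and 2.43 CPM in control cells (log2 fold change 2.93, adjusted p = 0.0112), but with siFTO replicate 6 alone its log2 fold change was -0.47 (adjusted p = 0.433). That call was also lost without control replicate 1, 2 or 3 (adjusted p 0.0856 to 0.104), which left 1 gene of the list higher in each case. Here too the high values were those of the libraries with high fibroblast marker sums, whose part was not tested.

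Receptors and partners of membrane mucins were tested in 9 genes, of which 2 were higher and 2 lower, again near the background of 19.5% and 17.9%. MET, the receptor bound by MUC20, had 236, 217 and 245 CPM in siFTO cells, against 123, 109 and 125 CPM in control cells (log2 fold change 0.97, adjusted p = 0.000194). EGFR was higher as well (0.69, adjusted p = 0.00171). ERBB2, the partner of MUC4, was lower (-0.45, adjusted p = 0.00346), and so was ERBB3 (-0.32, adjusted p = 0.0133), whose call was lost in 7 of 16 alternatives. ERBB3 did not pass without control replicate 1, control replicate 3, siFTO replicate 4 or siFTO replicate 5, which left 1 gene lower. With siFTO replicate 6 alone 2 were higher and 0 lower (ERBB2 at -0.32, adjusted p = 0.139), and with library totals alone 4 were higher and 1 lower.

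Regulators known to act on mucin genes, all transcription factors apart from the receptor NOTCH1, were tested in 15 cases. Of these, 2 were higher and 6 lower, against 19.5% and 17.9% of all genes. In fits without 1 library 2 were higher and 4 to 6 lower. FOXA1 (log2 fold change -0.31, edgeR adjusted p = 0.0492) and GATA6 (-0.37, adjusted p = 0.0181) were among the 6. Each lost its call in 9 of 16 alternatives. CDX2, an intestinal factor that activates MUC2, had 139, 142 and 169 CPM in siFTO cells, against 245, 283 and 248 CPM in control cells (log2 fold change -0.78, adjusted p = 0.000832). SPDEF, a goblet cell factor, had 1.27, 1.06 and 1.02 CPM in siFTO cells, against 4.56, 4.29 and 4.29 CPM in control cells (log2 fold change -1.96, adjusted p = 0.000509). HES1, a Notch target, was lower (-0.61, adjusted p = 0.0023), while NOTCH1 (0.70, adjusted p = 0.00183) and STAT3 (0.54, adjusted p = 0.00233), which can act on MUC1, were higher. CDX1, the close relative of CDX2, did not pass (log2 fold change -0.017, adjusted p = 0.915). The part of any of these regulators in the mucin values was not tested. With siFTO replicate 6 alone 2 were higher and 3 lower, and with the length and GC correction 4 were higher and 5 lower.

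GGACT, the most common form of the m6A consensus, was counted because FTO acts on m6A. It occurred 40 times in the longest MUC5B transcript (2.23 per kilobase) and 16 times in that of MUC2 (1.26 per kilobase), against 0.35 to 0.87 per kilobase in the other 8 mucins. Over 16317 protein-coding transcripts the median was 0.92 per kilobase (quartiles 0.55 and 1.38). The MUC2 transcript, typed as a processed transcript, is not of that kind. A motif match does not show methylation, and m6A-seq was not analysed here.

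Likeness of pattern was described by Pearson's correlation of log2 CPM over the 6 libraries, which share the contrast between groups. Among 10342 genes compared, SERINC5 (0.999), ZNF267 (0.998) and TMEM165 (0.997) were most like MUC2. ETS2 (0.999), JAG1 (0.998) and DPP8 (0.997) were most like MUC5B. A correlation of 0.99 or more was reached by 55 genes for MUC2 and by 38 for MUC5B.

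**Figure D5:**
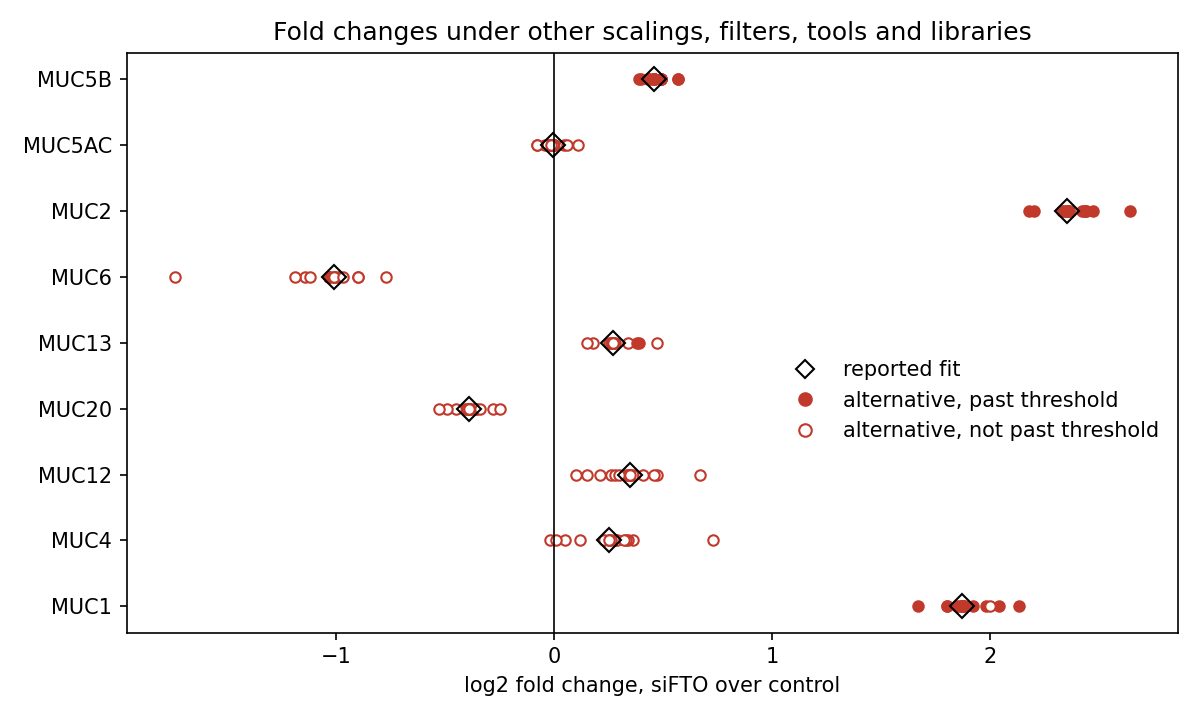
Log2 fold change of siFTO over control for the 9 tested mucins under each alternative scaling, filter, tool, threshold and set of libraries (circles) beside the reported value (diamonds), filled where the threshold was passed. MUC2 ranged from 2.18 to 2.64 and MUC5B from 0.39 to 0.57 with every circle filled, while MUC6 ranged from -1.74 to -0.77 with mostly open circles.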

How the data were processed

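RNA-seq of 6 libraries of 253J cells was analysed. The authors deposited 1 file of counts per library, which hold whole reads per gene and are not normalized. Tools named in the submitters' processing notes are TopHat2 2.0.11 and HTSeq, with hg19 and GRCh37 as builds. For HTSeq the version, the strand setting and the annotation release, and for repeats the treatment of reads with several positions, were not given in the sources used here. Rows for unassigned reads do not occur in these files, and the 37 mitochondrial IDs were at 0.

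Groups came from the sample titles. Nothing says that the replicates were separate cultures, so p-values measure only how these samples spread, which can be technical. Genes with low counts were removed with filterByExpr (minimum count 10, minimum total 15), libraries were scaled by TMM, and siFTO was compared with control by the quasi-likelihood test of edgeR 4.0.16 in R 4.3.3, two-sided, with Benjamini-Hochberg adjustment over 14965 genes and a threshold of 0.05. CPM use the TMM-scaled sizes, and CPM per kilobase divide by the union of exons in GENCODE 29. In bulk RNA, fewer expressing cells and less RNA per cell cannot be told apart. Intervals and floors of counts cover counting error only.

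The 10 mucins and the gene lists were chosen with earlier results of these data known. All 10 were named whatever their values. From each other list up to 3 genes in each direction with the smallest adjusted p were eligible. Genes at 0 or used as neighbours, MUC16, PDGFRA and other single marker names were chosen after their values were seen. So were GALNT3, GALNT5, GALNT7, GALNT13, GALNT16, GALNT18, FOXA1 and GATA6. The fit was also run on simulated counts with 200 changed genes, far fewer than were called here. That run therefore does not vouch for these calls. Alternatives were scaling by upper-quartile factors, by DESeq2-type size factors or by library totals alone, no filter, at least 10 counts in every library, DESeq2 1.42.0, limma 3.58.1 (voom), a threshold of 0.01 and leaving out each library. Leaving out siFTO replicates 4 and 5, and correcting fold changes for length and GC content, were added after seeing the data.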

Additional observations from a re-analysis of the deposited data

How the results depend on the processing

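MUC2 and MUC5B passed the threshold in every alternative run. The number of mucins called lower, 1 (MUC6) in the reported fit, was 0 with library totals alone, with no filter, with 10 counts required in every library (where MUC6 was not tested), with DESeq2, at a threshold of 0.01, without siFTO replicates 4 and 5, with the length and GC correction, and in each fit without 1 library (0 to 0). The number of transmembrane mucins called higher, 1 in the reported fit, was 0 with 10 counts in every library, with DESeq2 and without siFTO replicates 4 and 5, 2 with library totals alone, and 1 to 2 without 1 library. Mucins called higher numbered 2 to 4. The log2 fold change of MUC5AC was 0.11 with library totals alone and lay between -0.08 and 0.06 without 1 library, and that of MUC4 lay between -0.0173 and 0.73. Over all genes, 2913 were higher and 2684 lower, against 1411 and 1338 at a threshold of 0.01, 970 and 926 without siFTO replicates 4 and 5, and 1383 to 3826 and 1589 to 2928 without 1 library. Library totals alone moved the median log2 fold change of all genes to 0.12 and the share of calls that were higher to 68.7%, against 52.0% with TMM. The causes of these shifts were not tested. A fit with 1 library left in a group assumes that it varies like the other group.

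No paired analysis was possible because the groups share no replicate numbers. MUC1, MUC4, MUC6 and MUC17 had at most 28 counts in any library, which limits their precision. How reads in repeats were counted is not known, for these genes as for the others that hold repeats. In MUC13 no tandem repeat was found.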

Other observations

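Genes of the intestinal epithelium outside the mucin family were also measured. Of 14 tested markers, 5 were higher and 3 lower in siFTO cells by edgeR, against 19.5% and 17.9% of all genes. The 5 include PHGR1, with 1.63, 1.06 and 1.39 CPM in siFTO cells, against 0.465, 0.938 and 0.413 CPM in control cells. PHGR1 was tested only because of its siFTO libraries, where it was high, and lost its call in 7 of 15 alternatives. FABP1 (log2 fold change 1.0, adjusted p = 0.0117) lost its call in 3 of 16. REG4, a secreted lectin of enteroendocrine and goblet cells, had 169, 150 and 225 CPM in siFTO cells, against 34.5, 36.3 and 33.5 CPM in control cells (log2 fold change 2.38, adjusted p = 2.28e-05). KRT20, a keratin of differentiated gut and umbrella cells, had 20.2, 20.2 and 27.6 CPM in siFTO cells, against 4.56, 4.29 and 3.88 CPM in control cells (log2 fold change 2.43, adjusted p = 4.6e-05). Both had non-overlapping groups with the highest value in siFTO replicate 6, as MUC2 had. A highest value in siFTO replicate 6 was not particular to these genes. CDX1 (151 CPM) and VIL1 (361 CPM) also had theirs there, without a difference past the test. SPINK4, a goblet cell peptide, was higher as well (log2 fold change 0.64, adjusted p = 0.00617), although not without control replicate 1 (adjusted p = 0.0525). The 3 lower were SPDEF (-1.96, adjusted p = 0.000509), CDX2 (-0.78, adjusted p = 0.000832) and LGALS4, a gut galectin (-0.28, adjusted p = 0.0485), whose call was lost in 11 of 16 alternatives. CDX1 and VIL1, which mark the same epithelium, did not pass (log2 fold changes -0.017 and 0.08). Without control replicate 1 the list had 2 higher and 2 lower genes, without control replicate 3 it had 3 higher and 2 lower, and with siFTO replicate 6 alone it had 4 higher and 2 lower.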
